A study of Mus musculus with 9 samples.

Results

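Klk6, Il1rn, Krt8, Krt18, Prr9, Penk and Ly6g are 7 of the 19938 genes that the array names, and they were picked as epithelial or secreted genes with a strongly higher signal in C2C12 cells that had received Mbnl1 siRNA. They were thus chosen by their level under Mbnl1 siRNA against control siRNA, which is given here as a description with no test. C2C12 is a line of mouse myoblasts, the dividing precursors of muscle fibres, and all cultures were grown without a differentiation step being named in the labels. The 9 arrays cover Mbnl1 siRNA, Cugbp1 siRNA and control siRNA, each harvested at the start (0 h), 2.5 h or 5 h of exposure to actinomycin D at 5 ug/ml, a compound that stops transcription, and there is 1 array for each siRNA and time. The labels do not state separate cultures for the arrays of one siRNA, so the p-values below measure the variation that siRNA and time leave over between single arrays, which may be technical. Each gene is measured by 1 probe set.

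Mbnl1 and Cugbp1 (gene symbol Celf1) encode RNA-binding proteins of muscle. MBNL1 is known for guiding alternative splicing and the placement of mRNAs, and for being trapped on expanded CUG repeats in myotonic dystrophy, while CUGBP1 is known for binding GU-rich stretches of mRNAs and speeding their decay. The genes described here belong to other settings: keratins of simple epithelia, a skin barrier gene, a secreted protease, a secreted brake on interleukin 1, an opioid peptide precursor and a surface protein of granulocytes. In the arrays with Mbnl1 siRNA, Mbnl1 itself stood at 22.0%, 18.3% and 15.9% of its level in the control arrays at 0, 2.5 and 5 h, and in the arrays with Cugbp1 siRNA Celf1 stood at 30.9%, 22.1% and 21.6%. Celf1 was also lower in the arrays with Mbnl1 siRNA, at 72.4%, 65.4% and 61.5% of its level in the control arrays, while Mbnl1 stood at 93.4%, 94.4% and 98.9% with Cugbp1 siRNA. Arrays had median intensities of 104.9 to 113.0, and any pair of arrays correlated at 0.980 to 0.995 over all probe sets on the log2 scale.

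The genes were chosen as strongly higher, so their place in this contrast followed from the choice. For 6 of the 7 the difference was large. Klk6, Ly6g, Il1rn, Krt8, Prr9 and Penk had ranks 1, 2, 3, 4, 5 and 8 among 9864 tested genes ordered by their log2 difference between Mbnl1 siRNA and control siRNA. The first rank of Klk6 depends on control values below the filter value: with low values raised to it the difference was 2.65 for Klk6, against 2.75 for Il1rn, 2.71 for Ly6g and 2.69 for Krt8. The genes next to them in that order that were not chosen are Mmp12 at rank 6 with a difference of 2.57, Mmp10 at rank 7 with 2.54, both secreted proteases of the extracellular matrix, and Serpinb9e at rank 9 with 2.34. Krt18 was different: its difference was 0.34 and its rank 1035 of 19938, and it did not pass the filter on low values, a mean log2 of 7.38 over the 9 arrays (intensity 167.1). Klk6 passed that filter only through its arrays with Mbnl1 siRNA, with a mean log2 of 6.36 over the other 6 arrays, and the other 5 genes passed it over those 6 arrays too, a check added after seeing the data. In this comparison 24% of the tested genes were higher and 31% were lower at a Benjamini-Hochberg adjusted p under 0.05 in limma, so a difference in this contrast was common over the whole array, and nothing is read from it for the genes that it chose.

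The promoter windows of 5 of the genes are shown because they hold, or lack, a motif that comes up in some of them and because Krt8 and Krt18 are neighbours with unlike signals. Each window is from RefSeq on GRCm38.p6, read on the gene's own strand 5′ to 3′, with 250 bases before the annotated start and 50 bases after it. Capitals mark AP-1 motifs (TGANTCA, the same on both strands in this form) and TATA boxes (TATAAA, searched on both strands). The windows are chr3:92123898-92124197 on the minus strand for Prr9, chr2:24336610-24336909 on the plus strand for Il1rn, chr15:75155011-75155310 on the plus strand for Ly6g, chr15:102004293-102004592 on the minus strand for Krt8, and chr15:102027966-102028265 on the plus strand for Krt18.
Prr9: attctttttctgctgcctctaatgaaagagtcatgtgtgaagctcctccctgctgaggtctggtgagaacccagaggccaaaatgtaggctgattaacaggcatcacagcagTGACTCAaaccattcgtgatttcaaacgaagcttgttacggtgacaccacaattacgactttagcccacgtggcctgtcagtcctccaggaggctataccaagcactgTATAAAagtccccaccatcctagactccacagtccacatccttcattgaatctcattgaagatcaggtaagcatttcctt
Il1rn: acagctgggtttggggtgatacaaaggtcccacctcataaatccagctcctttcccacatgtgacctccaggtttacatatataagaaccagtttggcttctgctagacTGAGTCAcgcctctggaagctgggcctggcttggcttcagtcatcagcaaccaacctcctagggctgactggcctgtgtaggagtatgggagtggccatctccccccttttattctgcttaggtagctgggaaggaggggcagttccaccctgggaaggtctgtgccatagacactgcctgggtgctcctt
Ly6g: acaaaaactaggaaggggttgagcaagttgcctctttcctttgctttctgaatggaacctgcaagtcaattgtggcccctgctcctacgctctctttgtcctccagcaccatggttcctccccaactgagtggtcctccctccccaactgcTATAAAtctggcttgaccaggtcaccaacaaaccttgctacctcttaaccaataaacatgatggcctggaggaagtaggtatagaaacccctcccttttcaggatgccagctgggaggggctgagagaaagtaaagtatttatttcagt
Krt8: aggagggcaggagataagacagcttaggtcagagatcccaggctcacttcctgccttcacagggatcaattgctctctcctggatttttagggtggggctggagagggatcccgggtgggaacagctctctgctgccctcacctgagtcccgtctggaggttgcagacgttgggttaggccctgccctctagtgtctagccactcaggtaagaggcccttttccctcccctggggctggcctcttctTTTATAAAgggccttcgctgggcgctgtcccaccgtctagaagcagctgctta
Krt18: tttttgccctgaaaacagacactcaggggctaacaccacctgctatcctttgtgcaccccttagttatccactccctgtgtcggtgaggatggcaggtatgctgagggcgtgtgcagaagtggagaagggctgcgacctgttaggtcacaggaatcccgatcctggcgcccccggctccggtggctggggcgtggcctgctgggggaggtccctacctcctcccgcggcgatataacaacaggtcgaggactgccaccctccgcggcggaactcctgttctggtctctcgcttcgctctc
An AP-1 motif stood 138 to 132 bases upstream of the start in Prr9 and 141 to 135 bases upstream in Il1rn. Those are the 2 genes with an AP-1 motif of the 6 with a window in the table, and 8.97% of all genes there hold one in some window (7.81% of 32851 windows). A TATA box stood 30 to 25 bases upstream of the Prr9 start and 99 to 94 bases upstream of the Ly6g start, and in Krt8 TTTATAAA overlaps the annotated start with a match on each strand. In another Il1rn window a reverse-strand match lies past the start, at -14 to -19 when counted as bases upstream. Counted at any position, 4 of the 6 genes hold a TATA box, against 15.7% of all genes and 13.6% of all windows. The Krt18 window holds neither. A GC box (GGGCGG) was present in Klk6 alone of the 6 genes, and 38.2% of all genes and 35.7% of all windows hold one. An E-box (CANNTG, which is the same on both strands in this form) was present in all 6 genes, in 74.99% of all genes and in 72.3% of all windows, and the CArG box was in none of the 6, in 1.81% of all genes and in 1.63% of all windows. These are matches of letters, and binding was not measured.

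Krt8 encodes keratin 8, the type II keratin of simple epithelia, which builds filaments together with the type I partner keratin 18. Krt8 lies on the minus strand of chromosome 15, at 101996711 to 102004342 (GRCm38.p6). Its intensity was 2632, 2984 and 2994 under Mbnl1 siRNA, 422, 521 and 467 under Cugbp1 siRNA and 394, 507 and 437 under control siRNA at 0, 2.5 and 5 h. The arrays with Mbnl1 siRNA were all far above the other 6, and those with Cugbp1 siRNA and control siRNA lay among each other. The difference between Mbnl1 siRNA and control siRNA was 2.69 on the log2 scale, a 6.46-fold higher level, with 2.56 to 2.78 at the single times.

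Krt18, the partner gene, lies at 102028216 to 102032026 on the plus strand of chromosome 15, with its start 23.87 kb from that of Krt8 and 2 other annotated genes between them. Its intensity was 121.5, 107.4 and 125.3 under Mbnl1 siRNA, 89.8, 98.2 and 101.4 under Cugbp1 siRNA and 87.0, 102.9 and 89.6 under control siRNA. All 9 values were below the filter value. The arrays with Mbnl1 siRNA were the 3 highest, but the lowest of them, at 2.5 h, was 107.4 beside a control value of 102.9 at the same time. The log2 difference of 0.34 between Mbnl1 siRNA and control siRNA (1.27-fold) varied between 0.06 and 0.48 over the 3 times. The signals of this keratin pair were thus unlike in these arrays: Krt8 had a difference of more than 2.5 at every time and Krt18 of less than 0.5. With Krt18 read by 1 probe set below the filter value throughout, this does not show that the transcripts differed.

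Prr9 encodes a proline-rich protein and lies within the epidermal differentiation complex, a cluster of skin barrier genes, on the minus strand of chromosome 3 at 92122204 to 92123947. Its intensity was 933, 920 and 943 under Mbnl1 siRNA, 391, 404 and 453 under Cugbp1 siRNA and 146, 138 and 158 under control siRNA. The 3 siRNAs made 3 separate levels with no overlap, highest under Mbnl1 siRNA, middle under Cugbp1 siRNA and lowest under control siRNA. The share of all tested genes whose arrays do not overlap was not counted. A lack of overlap is thus a description, here and below. The difference from control siRNA was 2.66 for Mbnl1 siRNA (6.33-fold, 2.57 to 2.74 at the single times). All 3 control values were below the filter value of 167.1, and with low values raised to it the difference was 2.48.

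**Figure D1:**
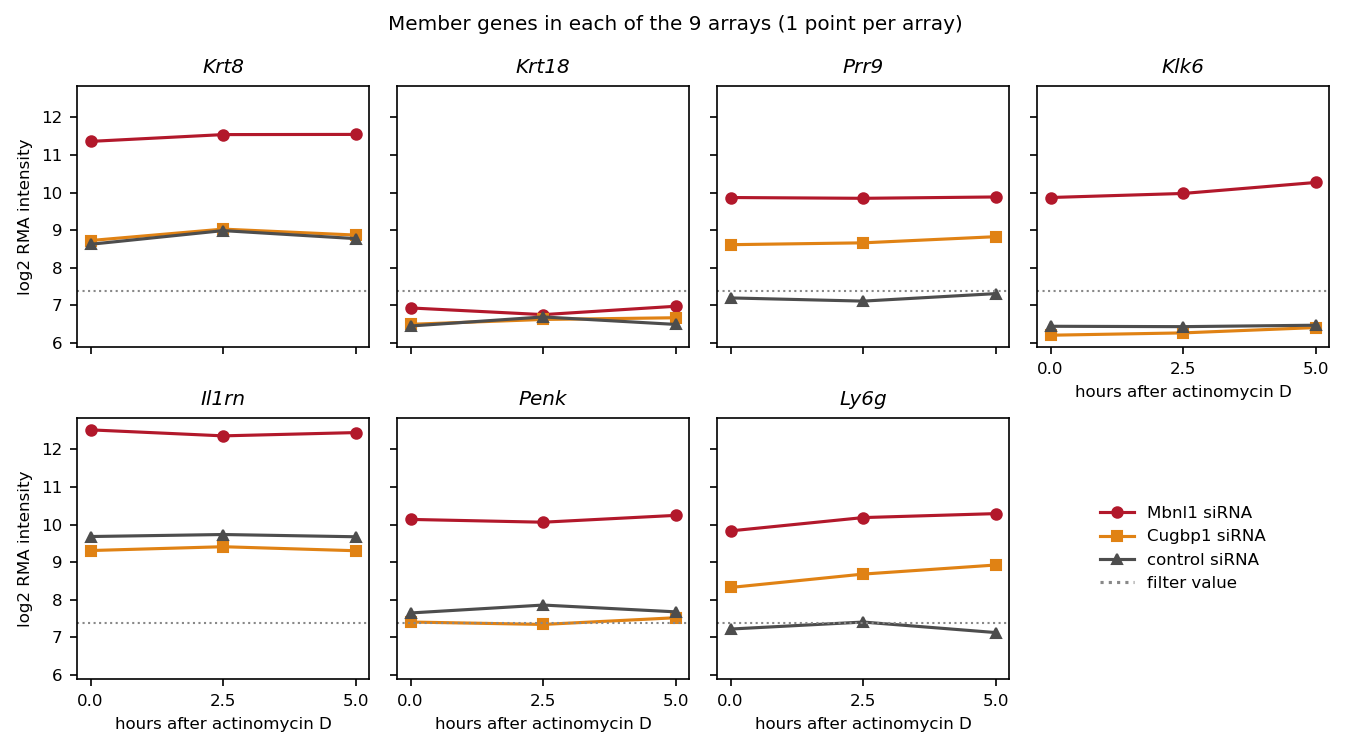
Log2 RMA intensity (vertical axis) of the 7 genes against hours after actinomycin D (horizontal axis), with 1 point per array, 1 line per siRNA and the filter value of 7.38 as a dotted line. Krt8, Klk6, Il1rn and Penk are high under Mbnl1 siRNA alone, Prr9 and Ly6g take a middle level under Cugbp1 siRNA, and Krt18 stays below the dotted line in all 9 arrays.

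Klk6 encodes a secreted serine protease of the kallikrein family, on chromosome 7 at 43824438 to 43832027. Its intensity was 934, 1006 and 1233 under Mbnl1 siRNA, 73.4, 76.6 and 84.6 under Cugbp1 siRNA and 86.6, 86.0 and 88.3 under control siRNA. All 6 arrays without Mbnl1 siRNA were below the filter value, and the 3 with it were well above. The log2 difference between Mbnl1 siRNA and control siRNA was 3.59 (12.1-fold), with 3.43 to 3.80 at the single times. With low values raised to the filter value the difference was 2.65.

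Il1rn encodes the interleukin 1 receptor antagonist, a secreted protein that occupies the interleukin 1 receptor without starting its signal, on chromosome 2 at 24336860 to 24351491. Its intensity was 5879, 5262 and 5591 under Mbnl1 siRNA, 633, 679 and 631 under Cugbp1 siRNA and 820, 851 and 817 under control siRNA. The groups did not overlap: Mbnl1 siRNA was highest and Cugbp1 siRNA lowest. The difference between Mbnl1 siRNA and control siRNA was 2.75 on the log2 scale (6.72-fold, 2.63 to 2.84 at the single times), and all 9 arrays were above the filter value.

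Penk encodes proenkephalin, the precursor that is cut into enkephalin opioid peptides, on chromosome 4 at 4133536 to 4138815. Its intensity was 1125, 1068 and 1212 under Mbnl1 siRNA, 169, 162 and 183 under Cugbp1 siRNA and 199.9, 231 and 204 under control siRNA. As for Il1rn, Mbnl1 siRNA was highest and Cugbp1 siRNA lowest, with no overlap. The log2 difference between Mbnl1 siRNA and control siRNA was 2.42 (5.36-fold, 2.21 to 2.57 at the single times).

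Ly6g encodes a surface protein of the Ly6 family that is used as a marker of mouse neutrophils, on the plus strand of chromosome 15 at 75155261 to 75159128. Its intensity was 910, 1164 and 1252 under Mbnl1 siRNA, 320, 410 and 485 under Cugbp1 siRNA and 149, 169 and 139 under control siRNA. Like Prr9 it took 3 separate levels without overlap. The log2 difference between Mbnl1 siRNA and control siRNA was 2.86 (7.24-fold, 2.61 to 3.17 at the single times). The Ly6 family has near-identical members, so the naming of this signal is less certain than for the other genes.

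Cugbp1 siRNA asks whether lowering another RNA-binding protein moves the same genes, and here the genes split. Prr9 and Ly6g rose under Cugbp1 siRNA, Il1rn and Penk fell, and Klk6, Krt8 and Krt18 did not pass the test. The comparison uses the control arrays that also took part in choosing the genes. Of the 5 genes that passed the filter also without the Mbnl1 siRNA arrays 2 were higher and 2 lower, where 10.5% of all tested genes were higher and 8.67% were lower (limma, adjusted p under 0.05 over 9864 genes). Prr9 and Ly6g passed it there only through their arrays with Cugbp1 siRNA, with mean log2 values of 7.20 and 7.25 under control siRNA. The count of higher genes is therefore a description, and so are the ranks and adjusted p of these 2 genes among the tested genes. With low values raised to the filter value the differences of Prr9 and Ly6g were 1.31 and 1.25. Over all named genes without the filter their limma adjusted p was 6.76e-05 and 0.00154.

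Prr9 rose by 1.50 ± 0.05 on the log2 scale (SE of the limma fit over 3 times), a 2.82-fold higher level. It was higher than control siRNA at all 3 times, with a limma adjusted p of 7.22e-06 among the tested genes. Prr9 had rank 2 among the 9864 genes by this difference, and Ly6g had rank 3. Ly6g rose by 1.40 ± 0.12 (2.63-fold, limma adjusted p = 0.000352), with 1.11 to 1.80 at the single times. These ranks and adjusted p are descriptions, since both genes passed the filter only through arrays where they were high. Against Cugbp1 siRNA, Mbnl1 siRNA was higher again for both, by 1.17 for Prr9 and 1.46 for Ly6g on the log2 scale, with no overlap of arrays.

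Il1rn fell by 0.36 ± 0.05 under Cugbp1 siRNA (limma adjusted p = 0.00393), with a lower value than control siRNA at each of the 3 times. Penk fell by 0.30 ± 0.07 (limma adjusted p = 0.0235), also at each of the 3 times. The Penk call rests on single arrays: its limma adjusted p was 0.0523 without the control array at 0 h, 0.0504 without the control array at 2.5 h, 0.0565 without the Cugbp1 siRNA array at 0 h and 0.117 without the Cugbp1 siRNA array at 2.5 h. It was 0.0706 without the filter and 0.142 without the time factor. For Prr9, Ly6g and Il1rn the call held without any 1 of the 9 arrays. For Prr9 and Ly6g these fits were over the filtered genes, so that is a description.

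Klk6 had a difference of -0.16 under Cugbp1 siRNA, with both sides below the filter value, so no test of it is relied on (limma adjusted p = 0.284 over all named genes without the filter). Krt8 had 0.08 ± 0.05 (limma adjusted p = 0.300), with overlapping arrays. Krt18 could only be set in the fit over all 19938 named genes, where its difference was 0.05 ± 0.09 (limma adjusted p = 0.818) and 4.86% of genes were called in either direction. Setting Mbnl1 siRNA against Cugbp1 siRNA gave 3.75 for Klk6, 3.11 for Il1rn, 2.73 for Penk, 2.61 for Krt8 and 0.29 for Krt18, as a description. The arrays again did not overlap, which held for the dim Krt18 too, and the share of all genes without overlap was not counted.

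**Figure D2:**
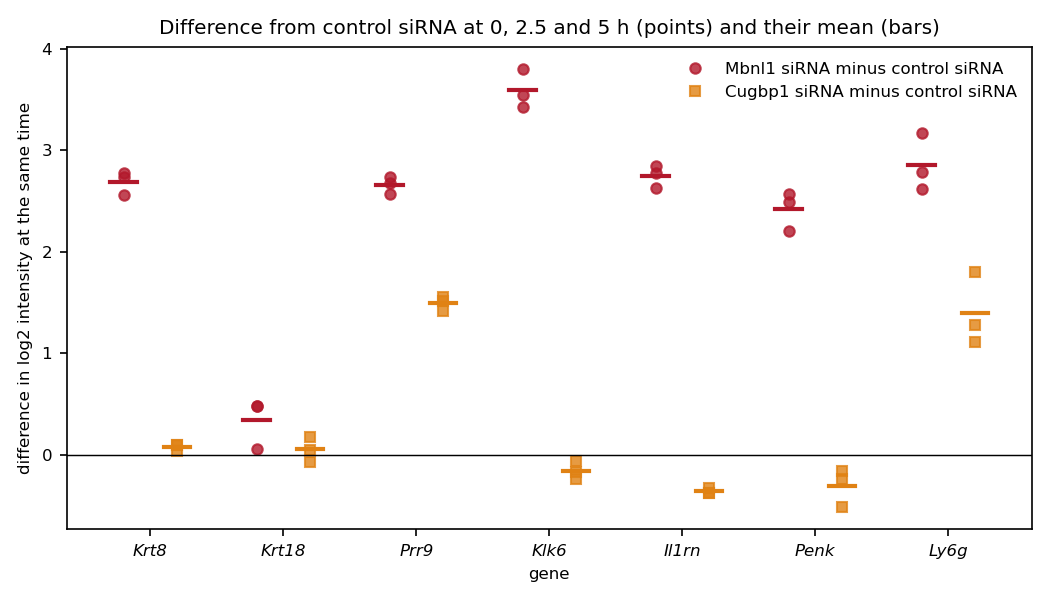
Difference in log2 intensity from the control array of the same time (vertical axis) for the 7 genes (horizontal axis), with 1 point for each of the 3 times and a bar at their mean, for Mbnl1 siRNA and Cugbp1 siRNA. The bars for Mbnl1 siRNA lie between 2.42 and 3.59 except for Krt18 at 0.34, while those for Cugbp1 siRNA are at 1.50 for Prr9, 1.40 for Ly6g and near or below 0 for the others.

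Actinomycin D shows how transcripts last once new ones stop being made. Over all 3 siRNAs together, Krt8 and Ly6g rose by 5 h and none of the 5 genes that passed the filter also without the Mbnl1 siRNA arrays fell, where 35.6% of all tested genes rose and 32.8% fell. With 5 genes these counts cannot be set apart from those shares. RMA values are relative, so a rise here is a rise against the other transcripts and no amount per cell. Krt8 rose by 0.16 ± 0.05 on the log2 scale (limma adjusted p = 0.0173) and Ly6g by 0.32 ± 0.12 (limma adjusted p = 0.0364). The Ly6g value is a mean over unlike siRNAs, with 0.46 under Mbnl1 siRNA, 0.60 under Cugbp1 siRNA and -0.09 under control siRNA. Klk6, which entered the tested genes only through its arrays with Mbnl1 siRNA, had a change of 0.21 ± 0.06 (limma adjusted p = 0.0190, and 0.0448 over all named genes without the filter). Scaling decided these calls: with the arrays set to equal medians of 58 ribosomal protein genes, which moves the median of all genes by -0.23, Klk6 changed by -0.02, Krt8 by -0.07 and Ly6g by 0.09, and none of the 3 passed the test. Of the genes called at 5 h over the whole array 52.1% were higher in the authors' scaling and 5.41% once ribosomal protein medians were made equal.

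Single arrays decided some of these calls too. The Klk6 call at 5 h was lost without the Cugbp1 siRNA array at 0 h (limma adjusted p = 0.0529) or without the Mbnl1 siRNA array at 0 h (0.0803) or at 5 h (0.0679), and also after quantile normalization (0.0561) or with low values raised to the filter value (0.151). The Krt8 call was lost without the control array at 0 h (limma adjusted p = 0.0696) or the Mbnl1 siRNA array at 5 h (0.0743). The Ly6g call held in 2 of the 9 fits that leave out 1 array. It was lost without the control array at 2.5 h (limma adjusted p = 0.0518), the Cugbp1 siRNA array at 0 h (0.148), 2.5 h (0.0521) or 5 h (0.158), and the Mbnl1 siRNA array at 0 h (0.117), 2.5 h (0.0567) or 5 h (0.127), and also without the filter (0.0696).

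The other genes did not pass the test at 5 h. Prr9 had a change of 0.11 ± 0.05 (limma adjusted p = 0.0621), Penk of 0.08 ± 0.07 (0.318) and Il1rn of -0.03 ± 0.05 (0.652). Prr9 did pass after quantile normalization (limma adjusted p = 0.0222) or without the Mbnl1 siRNA array at 5 h (0.0183). With equal ribosomal protein medians the Il1rn change was -0.26 and passed (limma adjusted p = 0.00213). Krt18, in the fit over all named genes, in which 38.2% were called in either direction, had 0.09 ± 0.09 (limma adjusted p = 0.439).

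At 2.5 h Krt8 alone rose of the genes that passed the filter also without the Mbnl1 siRNA arrays, by 0.28 ± 0.05 (limma adjusted p = 0.00234). None of them fell, where 23.1% of all tested genes rose and 24.2% fell. The Krt8 rise was present under all 3 siRNAs, with 0.18, 0.30 and 0.36 in the Mbnl1 siRNA, Cugbp1 siRNA and control arrays, and its call held without any 1 array. With equal ribosomal protein medians the rise was 0.14 (limma adjusted p = 0.0379). Of the genes called at 2.5 h 48.8% were higher in the authors' scaling, 4.19% once ribosomal protein medians were made equal and 59.2% after quantile normalization. Ly6g had a change of 0.30 ± 0.12 (limma adjusted p = 0.0634), which passed without the control array at 0 h (0.0230) or 5 h (0.00424), without the Cugbp1 siRNA array at 5 h (0.0374) or with a prior variance that follows the mean (0.0355). The values of Klk6, Penk, Il1rn and Prr9 lay between -0.02 and 0.05 at 2.5 h, and with equal ribosomal protein medians that of Prr9 was -0.16 (limma adjusted p = 0.0421).

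Within each siRNA the 5 h change has 1 array at either end and no test. Ly6g changed by 0.46 under Mbnl1 siRNA, 0.60 under Cugbp1 siRNA and -0.09 under control siRNA. The control values were dim, at or near the filter value, and at 2.5 h the control array was 0.19 above that at 0 h. The Ly6g change stood at percentile 98.6 of all tested genes under Mbnl1 siRNA, 99.6 under Cugbp1 siRNA and 36.6 under control siRNA. Klk6 changed by 0.40, 0.20 and 0.03 under Mbnl1 siRNA, Cugbp1 siRNA and control siRNA. For Il1rn these values were -0.07, -0.01 and -0.01, for Krt8 0.19, 0.15 and 0.15, for Penk 0.11, 0.11 and 0.03, for Prr9 0.01, 0.21 and 0.11, and for Krt18 0.04, 0.17 and 0.04. None of the 7 genes was among the 622, 451 and 608 tested genes that were lower by more than 1 at 5 h under Mbnl1 siRNA, Cugbp1 siRNA and control siRNA.

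**Figure D3:**
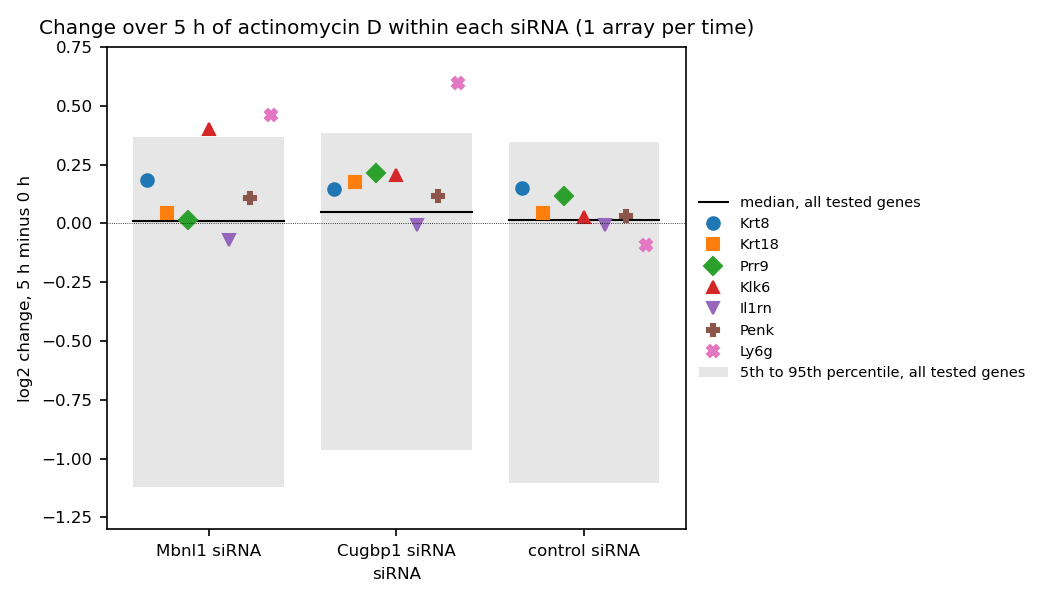
Change in log2 intensity between 5 h and 0 h of actinomycin D (vertical axis) within each siRNA (horizontal axis), with 1 marker per gene, grey bands for the range between the percentiles 5 and 95 of all 9864 tested genes and a line at their median. Ly6g lies above the band under Mbnl1 siRNA and Cugbp1 siRNA at 0.46 and 0.60 and at -0.09 under control siRNA, Klk6 lies above the band under Mbnl1 siRNA at 0.40, and the other genes lie inside the bands.

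Whether the time course differed between siRNAs was tested as a difference in slope per hour. None of the genes that passed the filter also without the Mbnl1 siRNA arrays had a called slope difference under Mbnl1 siRNA or Cugbp1 siRNA. Of all tested genes 0.0203% were called under Mbnl1 siRNA (2 of 9864) and 0% under Cugbp1 siRNA. At an unadjusted limma p under 0.05 there were 1361 and 1129 genes. The slope of Ly6g under Mbnl1 siRNA was higher than under control siRNA by 0.11 ± 0.02 per hour (limma adjusted p = 0.130). That of Klk6 was higher by 0.07 ± 0.02 (limma adjusted p = 0.152, and 0.424 over all named genes without the filter). All control values of Klk6 were below the filter value, so no test of its slope is relied on. Under Cugbp1 siRNA the Ly6g slope was higher by 0.14 ± 0.02 per hour (limma adjusted p = 0.320). The other genes tested had slope differences between -0.02 and 0.02 per hour under Mbnl1 siRNA. A slope was fitted with 2 residual degrees of freedom, so these misses do not show equal slopes.

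Genes related to each of the 7 were taken as lists without the 7 genes themselves, and they mostly stayed dim. Among 9 tested genes of epithelial adhesion and identity (34 on the array), 5 rose and 1 fell under Mbnl1 siRNA, with a median difference of 0.29 beside -0.02 over all tested genes, of which 24% were higher and 31% lower. Cldn3 and Cldn4 passed the filter only through the arrays with Mbnl1 siRNA, and of the other 7 genes 4 rose and 1 fell. Cdh1, which encodes the epithelial adhesion protein E-cadherin, had intensities of 404, 437 and 450 under Mbnl1 siRNA, 155, 181 and 171 under Cugbp1 siRNA and 179, 172 and 187 under control siRNA. Only the arrays with Mbnl1 siRNA were high. Its rise was 1.26 ± 0.05 (limma adjusted p = 2.56e-06), and Cldn4 and Ocln, which encode tight junction proteins, rose by 0.74 ± 0.14 and 0.44 ± 0.07. Jup and Spint1, named after their values were seen, rose by 0.38 and 0.29. Pkp2, named in the same way, fell by 0.21 ± 0.06 (limma adjusted p = 0.0192), and this call was lost without the 2.5 h or the 5 h array of Mbnl1 siRNA or of control siRNA, with an adjusted p up to 0.0987. Under Cugbp1 siRNA 1 of the 9 genes rose and 2 fell, with a median of -0.08, beside 10.5% higher and 8.67% lower over all tested genes, and without 1 array at most 1 rose and 0 to 3 fell.

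Krt8 was not joined by the few other keratins that could be tested. Of 24 other keratin genes on the array 5 were tested, and none rose and 2 fell under Mbnl1 siRNA. Over all tested genes 24% were higher and 31% lower, and 5 genes are too few to set their counts apart from those shares. Krt13, a type I keratin of stratified mucosa, had intensities of 338, 374 and 436 under Mbnl1 siRNA, 968, 1123 and 1249 under Cugbp1 siRNA and 694, 749 and 845 under control siRNA. The 3 groups did not overlap and ran in an order of their own, with Cugbp1 siRNA highest and Mbnl1 siRNA lowest. Krt13 fell by 0.999 ± 0.04 under Mbnl1 siRNA (limma adjusted p = 1.63e-06) and rose by 0.54 ± 0.04 under Cugbp1 siRNA (limma adjusted p = 0.000141), while Krt80 fell under both, by 0.23 and 0.64. Of 11 other tested genes of an intermediate filament list 7 fell and none rose under Mbnl1 siRNA, with a median of -0.23, where 31% of all tested genes were lower. The 7 include the neurofilament genes Nefm, by 0.55, and Nefl, by 0.32, and the lamin gene Lmnb1, by 0.33. They also include Plec, named after its values were seen, by 0.23, which encodes a linker of such filaments and no filament protein.

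Around Prr9, 8 of 37 genes of the epidermal differentiation complex were tested, and 2 rose and 1 fell under Mbnl1 siRNA, with a median of -0.02. Apart from Sprr1a the tested genes were all S100 genes, so these counts say little on the other genes of the complex. Over all tested genes 24% were higher and 31% lower. Sprr1a, which encodes a cornified envelope precursor, had intensities of 4727, 5075 and 5103 under Mbnl1 siRNA, 2237, 2526 and 2365 under Cugbp1 siRNA and 3676, 4152 and 3873 under control siRNA. It rose by 0.35 ± 0.04 under Mbnl1 siRNA and fell by 0.72 ± 0.04 under Cugbp1 siRNA (limma adjusted p = 0.000131 and 4.51e-05), where Prr9 rose under Cugbp1 siRNA. S100a1 rose by 0.25 and S100a16 fell by 0.22 under Mbnl1 siRNA. None of the 8 genes rose and 3 fell under Cugbp1 siRNA, and without 1 array 1 to 4 fell, with Sprr1a among those called each time. Over all tested genes 10.5% were higher and 8.67% lower under Cugbp1 siRNA.

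Of 16 other kallikreins on the array 1 passed the filter, Klk10, which rose by 0.22 ± 0.05 under Mbnl1 siRNA and fell by 0.32 ± 0.05 under Cugbp1 siRNA (limma adjusted p = 0.00530 and 0.00445). In the interleukin 1 family with its receptors and signalling genes, 7 of 19 were tested, and 2 rose and 2 fell under Mbnl1 siRNA. The shares over all tested genes were 24% higher and 31% lower. Il1f9, which encodes the cytokine interleukin 36 gamma, had intensities of 493, 447 and 397 under Mbnl1 siRNA, 388, 428 and 504 under Cugbp1 siRNA and 180, 218 and 209 under control siRNA. Both siRNA groups were above all control arrays and overlapped each other, unlike Il1rn. Il1f9 rose by 1.14 ± 0.12 under Mbnl1 siRNA and 1.12 ± 0.12 under Cugbp1 siRNA (limma adjusted p = 0.000108 and 0.000859). Irak2, a kinase of the receptor's signal, rose by 0.75 ± 0.06 under Mbnl1 siRNA, and Il1rap, the receptor's accessory chain, fell by 0.44 ± 0.05. The kinase gene Irak1, named after its values were seen, fell by 0.25.

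Around Penk, 5 of 26 neuropeptide precursors, processing enzymes and opioid receptors were tested, and Cpe, a carboxypeptidase that trims peptide hormones, rose by 0.48 ± 0.04 and Ogfr, the opioid growth factor receptor, by 0.41 ± 0.07 under Mbnl1 siRNA. None passed under Cugbp1 siRNA. Of 27 Ly6 and uPAR domain genes 5 were tested, and under Mbnl1 siRNA Plaur and Cd59a rose by 0.43 and 0.38 while Lynx1 fell by 0.45. Lypd6, named after its values were seen, fell by 0.35. Of 7 tested interferon response genes (21 on the array) none rose under Mbnl1 siRNA and 1 fell, Ifit2 by 0.38. For each list in this paragraph the shares over all tested genes were 24% higher and 31% lower under Mbnl1 siRNA. Under Cugbp1 siRNA they were 10.5% and 8.67%.

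**Figure D4:**
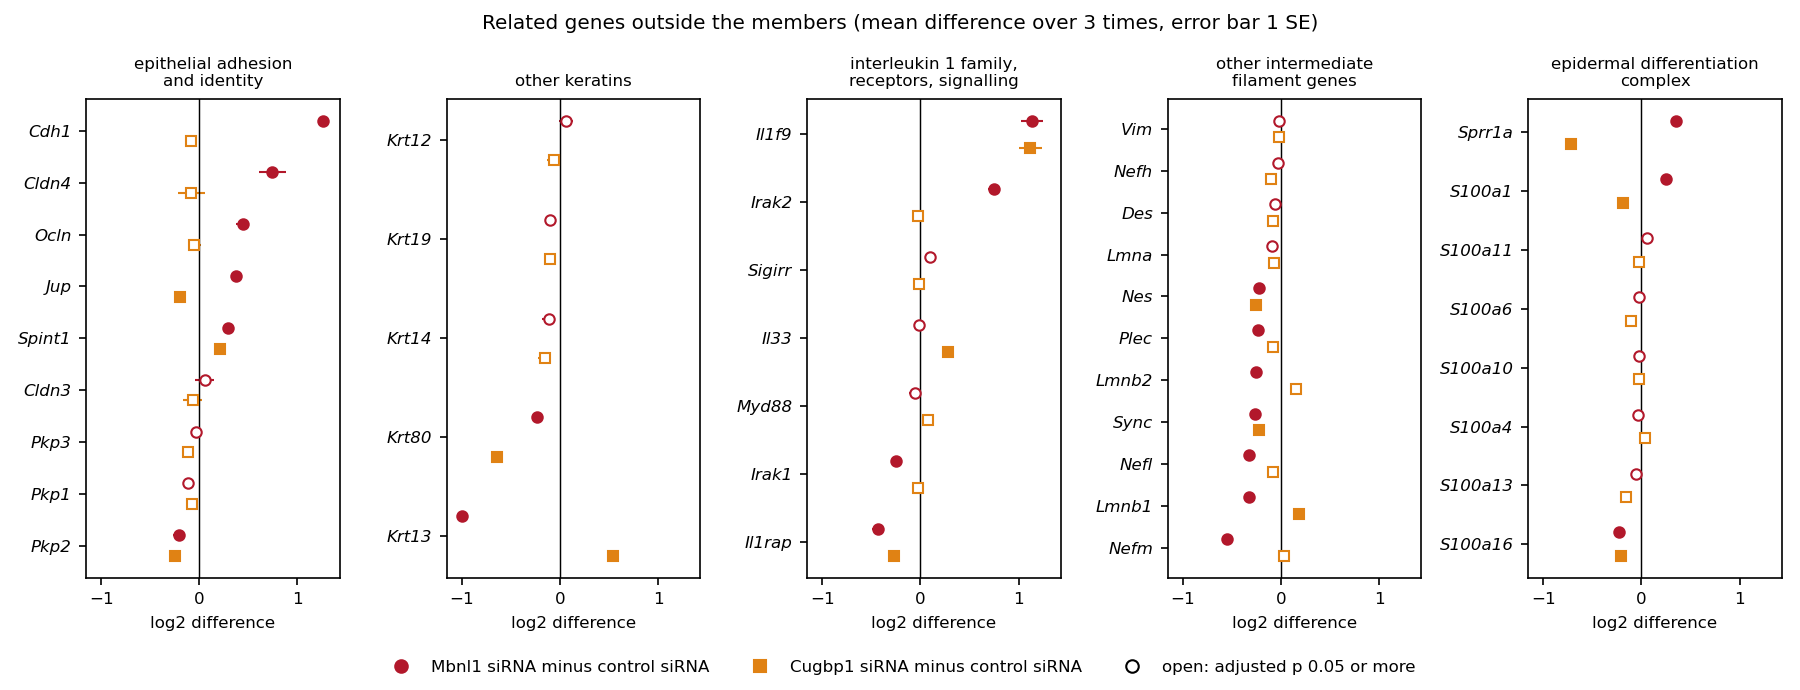
Mean log2 difference from control siRNA over 3 times (horizontal axis, bars of 1 SE) for tested genes of 5 lists (rows), under Mbnl1 siRNA (circles) and Cugbp1 siRNA (squares), with filled symbols for an adjusted p under 0.05. Cdh1 at 1.26 and Il1f9 at 1.14 are the rightmost circles, Il1f9 is also the rightmost square at 1.12, and Krt13 lies at -0.999 under Mbnl1 siRNA and 0.54 under Cugbp1 siRNA.

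Markers of the cell types that normally use these genes were mostly dim in every array. All 15 neutrophil markers, Ly6g apart, were below the filter value in all 9 arrays, and their summed intensity was 822 to 924 under Mbnl1 siRNA, 779 to 872 under Cugbp1 siRNA and 755 to 832 under control siRNA. Of 12 keratinocyte markers 10 were below the filter value in all 9 arrays, neither of the 2 tested passed under Mbnl1 siRNA, and the sums overlapped, at 1280 to 1382, 1239 to 1344 and 1295 to 1369. Of 12 macrophage and leukocyte markers 10 were below it, and the sums were 1477 to 1737 under Mbnl1 siRNA, 1132 to 1228 under Cugbp1 siRNA and 1142 to 1166 under control siRNA. The lysosomal gene Cd68 rose in this list, by 1.15 ± 0.04 under Mbnl1 siRNA and by 0.24 ± 0.04 under Cugbp1 siRNA (limma adjusted p = 0.00383). Its intensity was 723 to 908 under Mbnl1 siRNA and 332 to 395 under control siRNA, so much of the higher sum lay in this gene. The other tested marker, Cd14, did not pass under Mbnl1 siRNA, at -0.13 (limma adjusted p = 0.150). The part of such cells in the result was not tested. Of 4 tested genes of neurons and glia 3 fell under Mbnl1 siRNA, Tubb3 by 0.68, Gap43 by 0.53 and Stmn2 by 0.53, and Gap43 and Tubb3 also fell under Cugbp1 siRNA, by 0.58 and 0.48. Over all tested genes 31% were lower under Mbnl1 siRNA and 8.67% under Cugbp1 siRNA.

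Of 24 myoblast and muscle genes 6 were below the filter value in all arrays with Mbnl1 siRNA, 5 with Cugbp1 siRNA and 6 with control siRNA. Their summed intensity, which gives bright genes such as Des most weight, was 38311 to 39542 under Mbnl1 siRNA, 38421 to 39374 under Cugbp1 siRNA and 38949 to 39292 under control siRNA. Of 18 tested, 7 rose and 3 fell under Mbnl1 siRNA, with a median of 0.00, where 24% of all tested genes were higher and 31% lower. The troponin genes Tnni1 and Tnnt3 rose by 1.14 ± 0.05 and 1.05 ± 0.06 and the muscle creatine kinase gene Ckm by 0.64 ± 0.06. Tnni1 passed the filter only through the arrays with Mbnl1 siRNA, and of the other 17 genes 6 rose and 3 fell. The 3 that fell, named after their values were seen, were the myogenic factor gene Myod1 by 0.58 ± 0.05, the M-cadherin gene Cdh15 by 0.58 ± 0.04 and the adhesion gene Vcam1 by 0.37 ± 0.04. In bulk RNA more transcript per cell and a change in the share of cells that hold it cannot be told apart.

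The mean profile of the 6 genes that passed the filter, so without Krt18, was set beside 1523 tested genes over the 9 arrays. The highest and lowest arrays of each of those 1523 differed by at least 1 on the log2 scale. The arrays fall into 3 siRNA groups, so a Pearson correlation over them follows the order of the 3 groups, and it is given as a description. The 10 genes most like the mean profile were F11r (r = 0.995), Man1a (0.995), Tnni1 (0.990), P3h2 (0.990), Atp1b1 (0.988), Rflnb (0.986), Slc16a4 (0.985), Tnnt3 (0.985), Dpep2 (0.983) and Fuca2 (0.983). F11r, which encodes a tight junction adhesion protein, differed from control siRNA by 1.20 under Mbnl1 siRNA and 0.09 under Cugbp1 siRNA. Gene by gene, the nearest profile was that of Cdh1 for Klk6 (r = 0.995), Tgm2 for both Il1rn and Penk (0.998 and 0.996), Rflnb for Krt8 (0.995), Trim55 for Prr9 (0.992) and Gla for Ly6g (0.981). Among the 7 genes themselves, Klk6, Il1rn, Krt8 and Penk correlated with each other at 0.987 to 0.997 and Prr9 with Ly6g at 0.984, and the values between these 2 sets were 0.762 to 0.879. Krt18 correlated with the other genes at 0.765 to 0.870.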

How the data were processed

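Total RNA of C2C12 cells was labelled with biotin from 100 ng per sample for Affymetrix whole-transcript arrays, per the labels' protocols. The authors deposited 1 intensity per probe set and array, made with RMA in Affymetrix Expression Console per the submitters' processing notes (no version is named there). Those values fit RMA intensity on a linear scale, and log2 was taken here. Of 35556 probe sets 21789 name 1 gene, 1621 several and 12146 none. For a gene with several, the probe set with the highest mean was used. The low-value filter was the median mean level of named probe sets, 7.38 on the log2 scale or an intensity of 167.1, since no measured background was used. It left 9864 of 19938 genes for testing, with 6 of the 7 described.

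Levels and times were fitted by limma (version 3.58.1, R 4.3.3; siRNA and time as factors, 4 residual degrees of freedom), and slopes with a line in hours per siRNA (2 residual degrees of freedom), with Benjamini-Hochberg adjustment over all tested genes and a threshold of 0.05. Differences are on the log2 scale with the SE of the fit. Precision is limited by the number of arrays. The fits were tested on simulated data. Beside the 7 genes and the siRNA targets, the text names, of each list, the 3 genes with the largest called difference under Mbnl1 siRNA, those called under Cugbp1 siRNA with a difference of at least 0.5, and the 10 nearest profiles. The genes, lists and tests were chosen with earlier results of these data known. Symbols for 3 interleukin 36 genes were matched through RefSeq synonyms. Filter, scaling, normalization, the choice of probe set, the time factor and each array were varied.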

Additional observations from a re-analysis of the deposited data

How the results depend on the processing

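Single arrays stand for each siRNA and time, several control values lie near or below the filter value, and the scaling of RMA is relative, so small time changes are the least secure values here. Over 35 tested results of the 7 genes and 544 alternatives, 470 kept their direction and their side of the threshold. Some alternatives cannot move an estimate, such as another filter, the mean of probe sets, or leaving out an array of a siRNA outside the comparison. The count is thus no measure of how stable the results are. Prr9, Ly6g and Il1rn under Cugbp1 siRNA and Krt8 at 2.5 h kept their call under every alternative run. The calls of Prr9 and Ly6g among the filtered genes are descriptions. The cause of the changes listed here was not tested.

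Counts of called genes moved with the setting. With the filter at the 75th percentile, which leaves 4884 genes, there were 3197 for the level under Mbnl1 siRNA, 2609 at 2.5 h, 3508 at 5 h, 82 for the slope under Mbnl1 siRNA and 3 for that under Cugbp1 siRNA. Without the time factor there were 2096 for the level under Mbnl1 siRNA and 155 for that under Cugbp1 siRNA. Without a filter the level under Cugbp1 siRNA gave 969 and the slope under Mbnl1 siRNA 0. That slope gave 56 with equal ribosomal protein medians, 1 after quantile normalization, 192 with a prior variance that follows the mean and 20 with the mean of a gene's probe sets, and the slope under Cugbp1 siRNA gave 6 with such a prior. Leaving out 1 array gave 742 to 2027 genes for the level under Cugbp1 siRNA, lowest without the control array at 2.5 h and highest without the Mbnl1 siRNA array at 0 h, and 0 to 203 for the slope under Mbnl1 siRNA, highest without its 2.5 h array.

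Directions that turned belonged, apart from Klk6 and Krt8 at 5 h, to values that no test had called. With equal ribosomal protein medians the values were -0.0898 for Klk6, -0.0788 for Krt18 and -0.119 for Penk at 2.5 h; -0.0229 for Klk6, -0.0732 for Krt8, -0.147 for Krt18, -0.120 for Prr9 and -0.150 for Penk at 5 h; and, for slopes, 0.00646 for Krt8 under Cugbp1 siRNA and -0.000911 for Krt18 under Mbnl1 siRNA. After quantile normalization they were 0.0304 and 0.0183 for Il1rn at 2.5 h and 5 h, 0.0115 for Prr9 at 2.5 h, -0.00831 for the Il1rn slope under Cugbp1 siRNA and -0.0372 for the Krt8 slope under Mbnl1 siRNA. With low values raised to the filter value Prr9 had 0.00939 at 2.5 h. Leaving out 1 array gave, at 2.5 h, -0.00788 to 0.115 for Klk6, -0.0474 to 0.0666 for Il1rn, -0.0357 to 0.175 for Krt18, -0.0608 to 0.0142 for Prr9 and -0.0831 to 0.0792 for Penk. It gave -0.0593 to 0.0229 for Il1rn at 5 h and -0.0148 to 0.152 for Krt18 under Cugbp1 siRNA. Slopes under Mbnl1 siRNA ran over -0.0949 to 0.0684 for Il1rn, -0.0617 to 0.0758 for Krt8, -0.132 to 0.133 for Krt18, -0.0597 to 0.0198 for Prr9 and -0.113 to 0.144 for Penk. Those under Cugbp1 siRNA ran over -0.0549 to 0.0553 for Il1rn, -0.0527 to 0.0505 for Krt8, -0.0936 to 0.147 for Krt18, -0.0200 to 0.0596 for Prr9 and -0.112 to 0.145 for Penk. Setting the filter on the mean of the arrays other than Mbnl1 siRNA, an alternative chosen after seeing the data, left out Klk6 and changed no call of the other genes. Raising low values gives no value where both sides are at the filter value.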
